A study of Homo sapiens with 6 samples.

Results

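The genes described here are 150 protein-coding genes on which eIF4B cross-linking made up a larger share of all cross-linking in GM01953 cells than in DoHH-2 cells. They were selected on the measured values themselves. For each gene name, the cDNA counts of all its cross-link positions were summed and expressed per 1000000 counts of the cell line's total, as CPM. Of 13455 protein-coding names with a count in either cell line, after leaving out histone, ribosomal protein, mitochondrial, immunoglobulin and HLA names, 1467 had at least 20 counts at 5 or more positions in GM01953 and were candidates. The 150 candidates with the highest smoothed ratio, (GM01953 + 10)/(DoHH-2 + 10) in CPM, were taken. The difference between the cell lines that chose these genes is therefore given as a description, with no test.

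The RNA contacts of eIF4B were mapped by iCLIP, a UV cross-linking and immunoprecipitation method with single-nucleotide resolution, in DoHH-2, a diffuse large B-cell lymphoma (DLBCL) line, and in GM01953, a B-cell line used as the control. The labels name no treatment or engineered change for either line, all cells were irradiated with UVC before eIF4B was precipitated, and the lines come from different people, so the comparison is between 2 lines and not between tumour and normal cells in general. The labels name 4 DoHH-2 and 2 GM01953 replicates, but the deposited table of each line is a pool of them, so no SD, no test between the lines and no replicate check could be had. The GM01953 table held 167197 counts at 78474 positions and that of DoHH-2 held 2033156 counts at 1179243 positions, a 12.2-fold difference in depth.

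eIF4B is a translation initiation factor that stimulates the RNA helicase eIF4A, which unwinds structure in the 5′ UTR so that the small ribosomal subunit can scan towards the start codon. In iCLIP, reverse transcription stops at the nucleotide that was cross-linked to the protein, so each cDNA marks the place on an RNA where the protein touched it. Cross-linking rises with the amount of an RNA as well as with the affinity for it. RNA levels were not used here, so more RNA of a gene in GM01953 and more eIF4B on each RNA molecule cannot be told apart for any gene below.

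The nucleotides with the most counts illustrate what lies behind the sums. Each sequence is the RNA strand read from the reference genome (GRCh38), 10 nt to each side of the cross-linked nucleotide, which is in capitals. The first 4 are shown because they lie in unique sequence of genes that the results turn on. They are from MS4A1 (chr11:60462378-60462398, plus strand, coding sequence, 8 counts), CD40 (chr20:46126168-46126188, plus strand, an exon of a non-coding transcript, 50 counts), B2M (chr15:44715437-44715457, plus strand, coding sequence, 11 counts) and TRAF1 (chr9:120909367-120909387, minus strand, coding sequence, 7 counts).
MS4A1: acaacacccaGaaauucagua
CD40: ggaugcugcuGaacaucugca
B2M: cagguuuacuCacgucaucca
TRAF1: gcguuucagcCuucuacacug
At the same 4 nucleotides DoHH-2 had 0, 0, 1 and 0 counts, and within 3 nt of them 0, 0, 3 and 0. Low DoHH-2 counts are favoured here, because the genes were chosen on this contrast and the positions on their GM01953 counts. The next window is shown because its counts cannot be credited to an mRNA with certainty. It is from C12orf57 (chr12:6943831-6943851, plus strand, annotated 5′ UTR, 33 counts).
C12orf57: uuuagaauuuGucuaguaggc
The position lies on RNU7-1, the gene of the U7 small nuclear RNA that guides histone mRNA 3′ end processing. All 226 C12orf57 counts in GM01953 fell on RNU7-1.

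The 150 genes held 6913 counts at 3077 positions in GM01953, or 4.13% of its total, and 9081 counts at 6101 positions in DoHH-2, or 0.447% of its total. The median gene had 34 counts in GM01953 (quartiles 26 and 46) and 28 in DoHH-2 (quartiles 2.25 and 82), which is 203 and 13.8 CPM. The median smoothed ratio was 7.74 (quartiles 4.81 and 16.7), against 1.17 in the other 1317 candidates and 1.28 in all candidates. A smoothed ratio of 2 or more was reached by 395 candidates, 26.9% of them, and by all 150 genes, as the rule fixes. Candidates had to pass a minimum in GM01953, the shallower table. When genes passing the same minimum of CPM and positions in either line were taken, 1986 genes remained with a median of 0.969, of which 19.9% had a ratio of 2 or more and 17.3% a ratio of 0.5 or less. A gene that passed through GM01953 alone leaned to GM01953 for that reason, and one that passed through DoHH-2 alone to DoHH-2. The gene lists below are therefore described over all of their genes with a count in either table, whether or not they passed. Over all 13455 protein-coding names with a count, the median was 0.91, 12.7% had a ratio of 2 or more and 17.2% a ratio of 0.5 or less. Many of these genes had few counts, and GM01953 was the shallower table. There 2 counts against 0 in DoHH-2 gave a ratio of 2.2, as for CD27. In the other direction, 0 counts against 18 in DoHH-2 gave 0.53, as for IFITM3. With few counts a ratio of 2 was thus reached more easily than a ratio of 0.5. The lists were also chosen with earlier results of these data known, so their counts are a description.

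**Figure D1:**
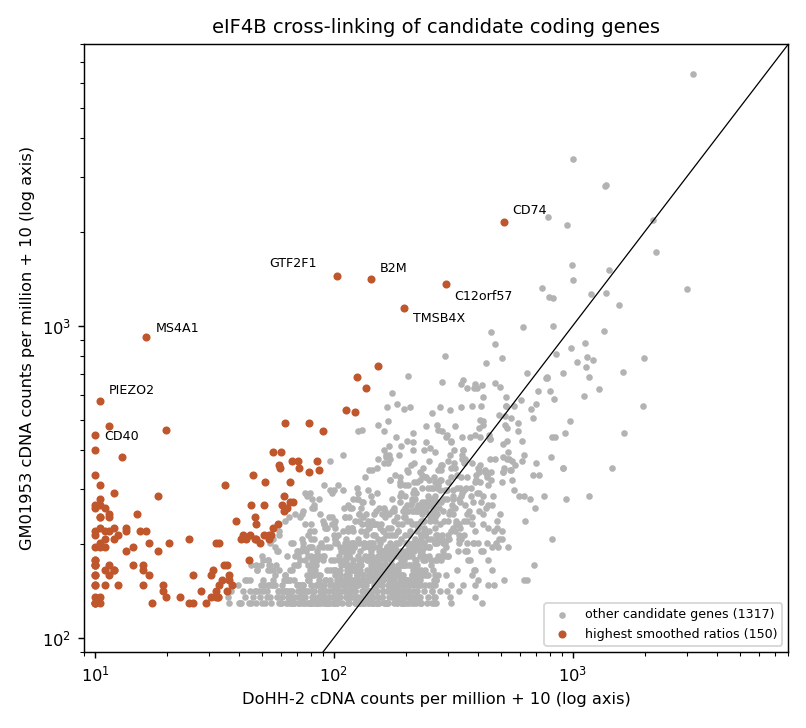
Cross-linking of the 1467 candidate genes, in CPM plus 10, in DoHH-2 (x axis, log) and GM01953 (y axis, log), with 1 point a gene and the line of equal values. The 150 genes with the highest smoothed ratio lie along the upper left edge, from MS4A1 at 909 and 6.39 CPM to CD74 at 2147 and 503, and the vertical stack at the left holds genes with few or no DoHH-2 counts.

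The ratio was below 5 in 44 of the genes, from 5 to 10 in 38, from 10 to 20 in 46 and 20 or more in 22. In DoHH-2, 21 genes had 0 counts and a further 23 had 1 to 3 counts. A count of 0 in DoHH-2 allows up to 3 counts, or 1.48 CPM. For these 44 genes the smoothed ratio depends on the 10 CPM that were added and is no measure of the fold. At the other end, the last genes inside the threshold were AKT2 (3.98), PANK2 (3.97), ALAS1 (3.93), XXbac-BPG181M17.5 (3.90) and SYNGR2 (3.89). The first outside it were RASSF3 (3.87), MEF2C (3.86), DHRSX (3.84), VASP (3.82) and SH3BGRL (3.82). The threshold falls within a continuous range of values.

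The gene with the highest smoothed ratio was MS4A1, which encodes the B-cell surface protein CD20. This rank depends on the constant that was added. With 1 CPM added instead, the ratio of MS4A1 was 123, below CD40 (438), CCND2 (390) and PIEZO2 (378), among others. With 50 CPM added, MS4A1 had the highest ratio of the named genes, at 17. MS4A1 had 152 counts at 84 positions in GM01953 and 13 counts at 12 positions in DoHH-2. This is a 142-fold difference in CPM (95% interval 80.7 to 273, covering counting error only). Its GM01953 counts were spread over the mRNA, with 62 in the coding sequence, 67 in the 3′ UTR, 14 in the 5′ UTR and 6 in introns. No position held more than 8 of them. Of the 143 counts on the canonical mRNA, 19 lay within 50 nt of the start codon and 21 within 50 nt of the stop codon. PIEZO2, a mechanosensitive ion channel, followed with a smoothed ratio of 54.5, from 94 counts in GM01953 and 1 in DoHH-2. Its difference in CPM, with nothing added, was 1143-fold, with an interval from 200.2 to 45623. Of its GM01953 counts, 49 were in introns and 41 in the coding sequence.

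COTL1, a coactosin-like actin-binding protein, had 78 and 3 counts, and BASP1, a membrane-associated protein, had 50 and 1. LGALS1, the lectin galectin-1, had 62 and 6 counts, a 126-fold difference in CPM (54.6 to 355.5). In GM01953, 45 of the LGALS1 counts were in the coding sequence and none in its short 3′ UTR. PEG10, an imprinted gene derived from a retrotransposon, had 45 and 1 counts, with 34 of the 45 in the coding sequence. Besides CD40, 3 of the 10 genes with the highest ratio had no count in DoHH-2. These were CCND2 with 65 GM01953 counts, CD44 with 54 and FSCN1 with 43, so that their CPM were at least 263.5-fold, 219-fold and 174-fold higher in GM01953 when DoHH-2 is set at 3 counts.

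The 150 genes included 4 receptors of the TNF family, many of which signal through TRAF adaptors to NF-κB. CD40, the receptor through which T cells license B cells, had 73 counts in GM01953 and 0 in DoHH-2, at least 296-fold higher. Only 9 positions made up that sum, and 50 of the 73 counts stood at the single nucleotide printed above, which is not on the canonical mRNA. That mRNA held 9 of the 73 counts. Without the highest position of each gene the smoothed ratio of CD40 was 14.8, in place of 44.7. TNFRSF1B, a TNF receptor, had 36 counts at 17 positions and 1 count in DoHH-2. TNFRSF13C, the receptor for the survival factor BAFF, had 40 counts and 10 counts, a 48.6-fold difference in CPM (23.9 to 109). TNFRSF8, which encodes the activation marker CD30, had 27 and 9 counts, a 36.5-fold difference (16.7 to 88.2). Of the 27 genes on the list of TNF receptors and ligands, 21 had a count in either table. Of these 15 had a ratio of 2 or more (71.4%, beside 12.7% of all names) and none a ratio of 0.5 or less. The median was 2.49, and 3 lay below 1. Some of the 15 rested on little. CD27 and TNFSF13B had 2 GM01953 counts at 1 position, and TNFRSF10A had 13 at 1 position. CD40, TNF and LTA were also on the NF-κB list. The 5 that passed the minimum, all through GM01953 alone, were the 4 receptors and CD70, the ligand of CD27, at 173 and 67.9 CPM.

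On the list of NF-κB subunits, regulators and targets, 39 of 41 genes had a count in either table. Of these, 26 had a ratio of 2 or more (66.7%) and none a ratio of 0.5 or less, with a median of 2.61, and 4 lay below 1. The minimum was passed by 12, of which 11 passed through GM01953 alone. Besides CD40, 4 were among the 150 genes. CCL22, a chemokine that attracts regulatory T cells, had 47 counts at 32 positions in GM01953 and 4 counts, all at 1 position, in DoHH-2. TRAF1, an adaptor of TNF receptors that NF-κB induces, had 25 and 14 counts, a 21.7-fold difference in CPM (10.9 to 45.2). BIRC3, an inhibitor of apoptosis bound to TRAF proteins, had 38 and 59 counts, a 7.83-fold difference (5.07 to 11.97), and 26 of its 38 counts were in the 5′ UTR. CD83, a surface marker of activated B cells, had 26 and 43 counts, a 7.35-fold difference (4.34 to 12.2). Of the subunits, REL reached 239 and 63.4 CPM and NFKB2 167 and 62.5, with ratios of 3.39 and 2.45 that left both outside the 150. NFKB1, RELA and RELB did not pass the minimum. NFKB1 had 114 and 110 CPM (ratio 1.03), RELA 108 and 59 (1.7) and RELB 23.9 and 49.7 (0.568).

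**Figure D2:**
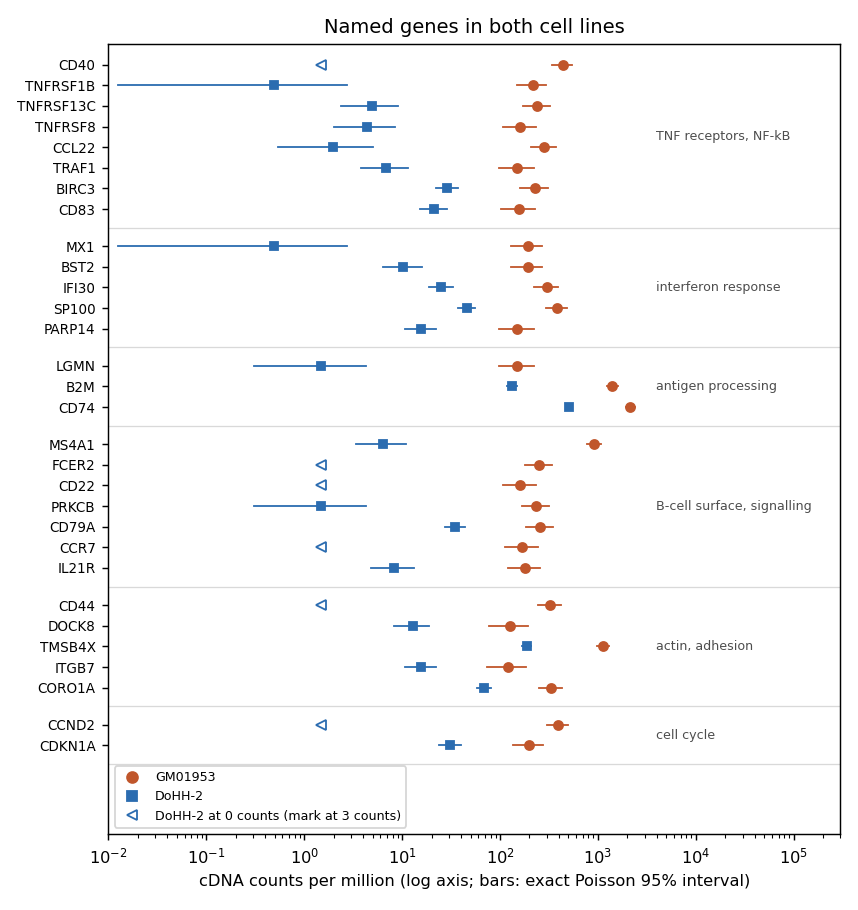
CPM (x axis, log) of 30 named genes in GM01953 (circles) and DoHH-2 (squares), grouped by role, with exact Poisson 95% intervals that cover counting error only. Open triangles mark genes with 0 DoHH-2 counts, drawn at 1.48 CPM, which 3 counts stand for, and in no gene do the 2 intervals overlap, as the selection on this contrast favours.

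The list of interferon-induced genes held 8 of the 150 genes. Of 46 genes on the list 41 had a count in either table, 23 of them with a ratio of 2 or more (56.1%) and 2 with 0.5 or less (4.88%), and the median was 2.16. The minimum was passed by 12, of which 8 passed through GM01953 alone. MX1, a dynamin-like antiviral GTPase, had 32 counts in GM01953, of which 15 were in the 5′ UTR and 14 in the coding sequence, and 1 count in DoHH-2. BST2, the protein tetherin that holds budding virus at the membrane, had 32 and 21 counts, an 18.5-fold difference in CPM (10.4 to 33.8). SP100, a component of nuclear PML bodies, had 64 and 93 counts, an 8.37-fold difference (5.99 to 11.6). PARP14, an ADP-ribosyltransferase, had 25 and 32 counts, a 9.50-fold difference (5.40 to 16.6). IFI30, a lysosomal thiol reductase that prepares antigens for MHC class II, had 50 and 51 counts, but all of its GM01953 counts stood at positions also listed under AC007192.4, an overlapping gene that was itself among the 150. IFITM1 and SP110 were also members, with ratios of 4.17 and 4.12, and every IFITM1 count was shared with IFITM2. Not all interferon-induced genes lay on this side. ADAR had 670 and 766 CPM and IFI16 335 and 539, and 6 of the 41 listed genes that were found had no GM01953 count.

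CD74 had the highest GM01953 count of the 150 genes, followed by GTF2F1 and B2M. CD74, the invariant chain that escorts MHC class II molecules, had 359 counts in GM01953 and 1023 in DoHH-2, or 2147 and 503 CPM, a 4.27-fold difference (3.77 to 4.82). B2M, the light chain of MHC class I, had 234 and 271 counts, or 1400 and 133 CPM, a 10.5-fold difference (8.78 to 12.6). LGMN, an endosomal cysteine protease, had 25 and 3 counts. All 20 listed genes of antigen processing had a count, 4 of them with a ratio of 2 or more (20%) and 2 with 0.5 or less (10%), and the median was 1.4. Of the 10 that passed the minimum 6 did not reach 2, among them the immunoproteasome genes PSMB8 and PSMB9 at 1.18 and 1.97 and the loading factor TAPBP at 1.51. Per kilobase of exon, B2M had 1478 CPM in GM01953 and CD74 had 1252, where the median of the 150 genes was 44.3 and that of the other candidates 40.4. In DoHH-2 the same medians were 1.98 and 32.5, so on this scale of level per length the 150 genes stood near the other candidates in GM01953 and below them in DoHH-2, as the rule favours.

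Where the counts lay along these mRNAs was set side by side for the 2 lines. The region of a position did not enter the rule, but 5 or more positions were needed in GM01953. The counts of all positions were summed, so a strong GM01953 position also helped to choose its gene. The shares are therefore a description. On the canonical CD74 mRNA, 94 of 333 GM01953 counts (28.2%) and 313 of 945 DoHH-2 counts (33.1%) were within 50 nt of the start codon, and the 3′ UTR away from the stop codon held 25.2% and 33.0%. On B2M, 71 of 228 counts (31.1%) and 51 of 255 (20%) were near the start codon, and 17.1% and 29.4% were in the 3′ UTR. On TMSB4X, which encodes the actin monomer-binding peptide thymosin β4, the 5′ UTR away from the start codon held 27.0% of 185 counts in GM01953 and 45.3% of 360 in DoHH-2. A single 3′ UTR nucleotide, at 282 nt from the start codon, held 27 of the 189 TMSB4X counts in GM01953 and 5 of 381 in DoHH-2. The surroundings of this nucleotide occur 2 times in the genome, and 65.6% of TMSB4X counts lay in sequence with more than 1 copy. LAPTM5, a lysosomal membrane protein of lymphocytes, had 36.2% of 80 counts near the start codon in GM01953 and 13.3% of 180 in DoHH-2, while its 3′ UTR held 12.5% and 48.9%. With the replicates pooled, it was not tested whether these shares differed beyond the spread between replicates.

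**Figure D3:**
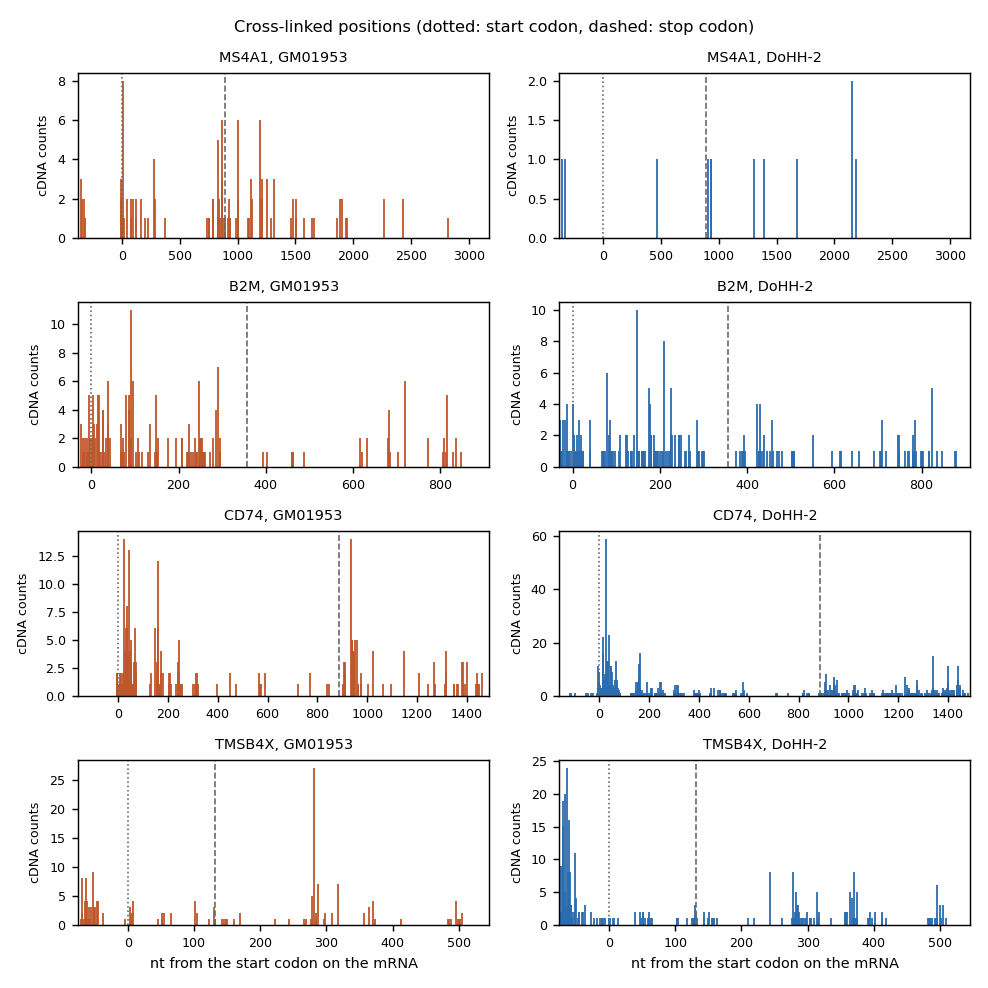
cDNA counts (y axis, linear, scaled within each panel) at each nucleotide of the canonical mRNA (x axis, nt from the start codon) of MS4A1, B2M, CD74 and TMSB4X in GM01953 (left) and DoHH-2 (right). Both lines show a cluster of CD74 counts after the start codon, and MS4A1 shows 143 counts on this mRNA in GM01953 against 12 in DoHH-2.

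B-cell surface and signalling genes followed. Of the B-cell markers, CD79A had 43 and 71 counts, CD79B had 7 and 99, PAX5 had 58 and 554, and CD74 and MS4A1 are given above. CD22, an inhibitory co-receptor that binds sialic acid, had 27 counts in GM01953 and 0 in DoHH-2. Of its 27 counts 18 were in introns, and 10 stood at 1 intron position. T-cell, myeloid and fibroblast markers (5, 5 and 4 genes) were listed in neither table. FCER2, which encodes the low-affinity IgE receptor CD23 of activated B cells, had 42 and 0 counts, at least 170-fold higher in CPM. Taken over all its transcripts, 27 of the 42 were in a 5′ UTR. The canonical mRNA held 18 of the 42, of which 10 lay in the 5′ UTR away from the start codon. PRKCB, the protein kinase C that links the B-cell receptor to NF-κB, had 39 and 3 counts, and 21 of the 39 were in introns. CD79A, a signalling chain of the receptor, differed 7.37-fold in CPM (4.92 to 10.9), and 34 of its 43 GM01953 counts were in the coding sequence. Of 28 genes of B-cell receptor signalling with a count 13 had a ratio of 2 or more (46.4%) and 1 had 0.5 or less (3.57%), with a median of 1.8. The last was the adaptor DOK3, at 53.8 and 157 CPM. SYK and BTK had ratios of 0.808 and 1.38.

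CCR7, the chemokine receptor that guides lymphocytes to lymph nodes, had 28 and 0 counts. All but 3 of the 28 were in the coding sequence, and 12 of them stood at 1 position. IL21R, a cytokine receptor of germinal centre and plasma cell differentiation, had 30 and 17 counts, a 21.5-fold difference in CPM (11.5 to 41.5). Of the 32 genes of cytokine receptors and JAK-STAT signalling with a count, 17 had a ratio of 2 or more (53.1%) and 5 a ratio of 0.5 or less (15.6%), with a median of 2.18. Those of the 5 that passed the minimum were CXCR4 (144 and 613 CPM), IL7R (17.9 and 137) and JAK1 (47.8 and 140). Among 25 genes of activated B cells and plasma cells with a count, 13 had a ratio of 2 or more (52%) and 4 a ratio of 0.5 or less (16%), with a median of 2.01. Of those that passed the minimum, CD44, FCER2, LGALS1, VIM (449 and 152 CPM) and POU2AF1 (389 and 152) had a ratio of 2 or more, and JCHAIN (544 and 1968 CPM), MZB1 (65.8 and 236) and CD48 (138 and 337) a ratio of 0.5 or less.

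The list of actin and adhesion had 51 genes with a count, 17 of them with a ratio of 2 or more (33.3%) and 4 with 0.5 or less (7.84%), and a median of 1.58. CD44, the hyaluronan receptor, had 24 of its 54 GM01953 counts in the 3′ UTR and 19 in introns. TMSB4X differed 6.03-fold in CPM (5.04 to 7.20). DOCK8, a guanine nucleotide exchange factor for CDC42, had 21 and 26 counts, ITGB7, a homing integrin chain, had 20 and 32, and CORO1A, an actin-binding coronin of leukocytes, had 55 and 140. The 4 listed genes at 0.5 or less were VCL (0.157), ITGB1 (0.189), DOCK10 (0.459) and ACTN1 (0.492). FSCN1, the actin-bundling protein fascin, was not on this list. It had 43 and 0 counts, 20 in the coding sequence and 16 in the 5′ UTR, and its top position occurs 2 times in the genome. Among 27 lysosomal genes with a count, 8 had a ratio of 2 or more (29.6%) and 4 a ratio of 0.5 or less (14.8%), with a median of 1.24. CTSH, a cathepsin, had 23 and 0 counts, and LAPTM5 had 88 and 209.

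CCND2 was the member on the cell cycle list. It encodes the G1 cyclin D2, and 43 of its 65 GM01953 counts lay in the 5′ UTR, 17 in the 3′ UTR and 5 in the coding sequence. DoHH-2 had none. Of the 34 listed genes of cell cycle and replication with a count, 2 had a ratio of 2 or more (CCND2 and CDK6, at 39.9 and 3.53) and 1 had 0.5 or less, and the median was 0.965. CCND3 had 29.9 and 38.9 CPM. CDKN1A, the inhibitor p21, had 33 and 63 counts, a 6.37-fold difference in CPM (4.05 to 9.86), with 20 of the 33 in the 3′ UTR. The 24 inhibitors of the cell cycle and p53 targets with a count had a median of 1.19, with 8 at 2 or more (33.3%) and 2 at 0.5 or less (8.33%).

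Other lists held none of the 150 genes. Of 22 germinal centre B-cell genes with a count, 5 had a ratio of 2 or more (22.7%) and 4 a ratio of 0.5 or less (18.2%), with a median of 1.11. The 4 were CD38 (12 and 246 CPM), MME (17.9 and 172), BACH2 (108 and 388) and FOXP1 (95.7 and 230). BCL6, the regulator of the germinal centre, had 233 and 243, but its 39 GM01953 counts stood at 2 positions. Of 28 translation factors none had a ratio of 2 or more and 8 had 0.5 or less (median 0.694), and of 38 splicing factors none and 6 (median 0.811). Medians were 0.817 for 24 genes of the endoplasmic reticulum, 0.884 for 30 chromatin regulators and 1.08 for 19 glycolytic genes.

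**Figure D4:**
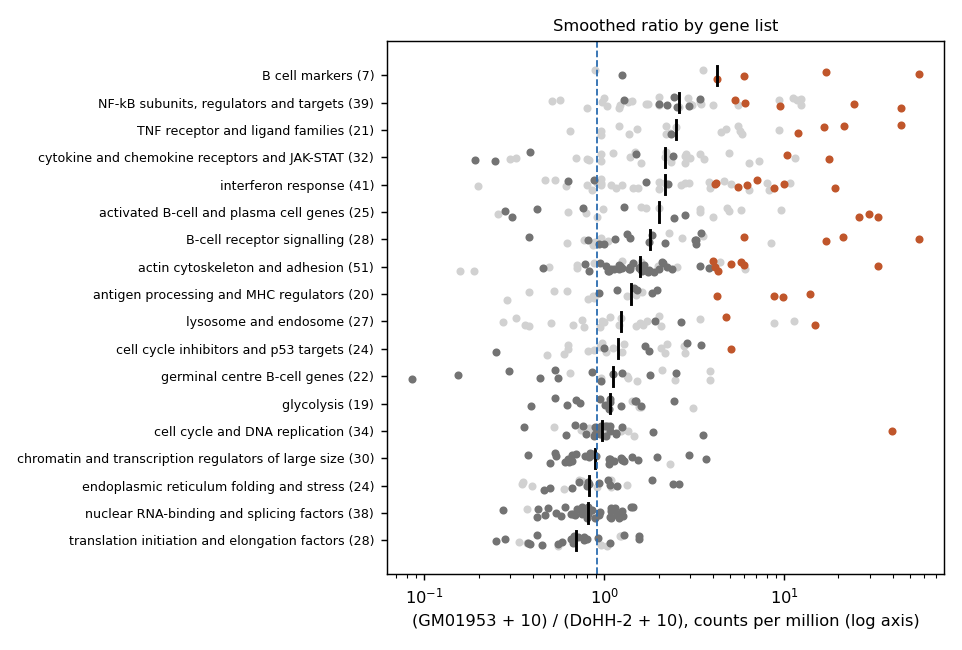
Smoothed ratio (x axis, log) of each listed gene with a count in either table, by gene list (rows, with the number of genes), where orange points are among the 150 genes, dark points passed the minimum in either line, pale points did not, short bars are list medians and the dashed line is the median of all 13455 names (0.91). The medians run from 4.2 for the 7 B-cell markers to 0.694 for translation factors, and the orange points lie to the right because the same ratio chose them.

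The regions of the 150 genes differed from those of the other candidates in their share of intronic counts. Regions were taken from all transcripts of each gene. In GM01953, 1688 of 6913 counts (24.4%, Wilson 95% interval 23.4 to 25.4) were in introns, against 7436 of 52264 (14.2%, 13.9 to 14.5) in the other candidates. The coding sequence held 32.2% (31.1 to 33.3) against 42.5% (42.1 to 42.9), the 5′ UTR 19.2% against 18.6% and the 3′ UTR 20.6% against 22.1%. In DoHH-2 the intronic share was 20.6% in the 150 genes and 13.3% in the other candidates, and the 5′ UTR share 20.2% and 12.5%. In both lines the 5′ UTR share of the 150 genes took in positions of C12orf57 and WDR74 that lie on small nuclear RNA genes. It is therefore not a share of mRNA contacts alone. Of the 150 genes, 28 (18.7%) had more than 50% of their GM01953 counts in introns, beside 11.2% of all candidates. The interval covers counting error only, and it treats the counts of 1 gene as independent, which they are not.

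A few genes carried part of the intronic excess. GTF2F1, a subunit of the general transcription factor TFIIF, had 240 counts in GM01953 at 11 positions, 232 of them in introns, and 190 in DoHH-2, 84 of them in introns. In GM01953, 96.7% of its counts lay in sequence with more than 1 copy, and in exons alone the smoothed ratio of GTF2F1 was 0.931. AGBL5, a deglutamylase of tubulin, had 86 of 87 counts in introns. Of the 87, 42 and 34 stood at 2 nucleotides, where DoHH-2 had 61 and 97. Their surroundings occur 2 and 6 times in the genome. Nuclear transfer RNA genes were not among the small RNA genes looked for. The intronic label therefore does not show that these counts came from AGBL5 RNA. SLC4A1, the anion exchanger of red blood cells, had 76 counts at 6 positions in its 3′ UTR next to a run of A. In these genes and in TMSB4X more than 50% of GM01953 counts lay in sequence with more than 1 copy. In all this was so for 5 of 150 genes (3.33%) and for 8 of the other 1317 (0.607%). C12orf57 and WDR74 had 100% and 94.3% of their counts on the small nuclear RNA genes RNU7-1 and RNU2-2P. Without the 7 genes mostly in repeated or small RNA sequence, a choice made after the values were seen, the intronic share was 21.4%.

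Other intronic genes had mostly unique sequence. ADARB2, an RNA editing enzyme homologue of the brain, had 31 counts, all in introns, over a gene of 560 kb, and 2 counts in DoHH-2. PDE4D, a cyclic AMP phosphodiesterase, had 37 counts and 76, of which 37 and 75 were in introns of a gene of 1553 kb. The median gene span was 42.9 kb in the 150 genes and 43.8 kb in the other candidates, the upper quartile 148 and 108 kb, and the median mature lengths 3464 and 3908 nt. The members with 20 or more counts in both lines and mostly unique sequence gave the most even view of both tables. In these the intronic share was 18.3% (17.0 to 19.6) in GM01953 and 17.3% (16.4 to 18.2) in DoHH-2. The coding share was 42.7% and 35.9%, the 5′ UTR share 15.5% and 11.8%, and the 3′ UTR share 20.7% and 30.7%. The lower 3′ UTR share in GM01953 was also seen in the other candidates, at 22.1% against 30.5% in DoHH-2.

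Binding sites, positions at which the authors' FDR was below 0.05, held 73.4% (72.4 to 74.5) of GM01953 counts of the 150 genes and 68.7% (68.3 to 69.1) in the other candidates. In DoHH-2 they held 43.4% and 54.7%, but the rule favours genes with few DoHH-2 counts (a median of 28 against 331 in the other candidates) and calling a site depends on counts, so nothing is read from this difference. The median gene had 18.9% of its GM01953 counts at its highest position, against 17.9% in the other candidates. More than 50% stood at 1 position in 7 of the 150 genes (4.67%) and in 22 of the other candidates (1.67%). Besides CD40 and SLC4A1 these included PAG1, an adaptor that recruits the kinase CSK, with 53 of 80 counts at 1 intron position, and GNG2, a G protein γ subunit, with 16 of 26. Without the highest position their smoothed ratios were 2.90 and 5.19, in place of 7.86 and 10.4. AKT2, a kinase of PI3K signalling, had 27 of 56 counts at 1 position, and its smoothed ratio without that position was 2.20, in place of 3.98.

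The cross-linked nucleotide of the 150 genes was U at 37.0% (35.3 to 38.7) of GM01953 positions, C at 28.6%, G at 24.4% and A at 10.0%. In the other candidates U made up 41.0% (40.4 to 41.6) and C 24.8% (24.3 to 25.3). In DoHH-2 the positions of the same 150 genes had 40.7% U and 24.5% C, and the other candidates 43.0% and 21.9%. U was the most frequent base in all 4 sets, and the 150 genes had less U and more C than the other candidates in both lines. At the next nucleotide U made up 42.2% and A 32.5% in the 150 genes in GM01953, against 43.7% and 31.6% in the other candidates, and 44.8% and 26.1% against 46.4% and 27.7% in DoHH-2. The files do not state whether positions count from 0 or 1. They were read as counting from 0, and the low share of A depends on that reading. Base composition of the transcripts moves with the region, which also differed between the sets, and its part was not tested.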

How the data were processed

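iCLIP of eIF4B was analysed from 1 table per cell line. The cDNA counts per cross-link position were deposited by the authors as whole numbers, not normalized. They removed PCR duplicates with dedupe of BBMap, demultiplexed with Je, mapped to GRCh38 with HISAT2 (per the labels), pooled replicates and called positions with iCount. Versions and the annotation release are not given in the sources used here. The authors deposited an FDR, a kind of q-value, with every position, obtained by permuting counts within a gene.

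Positions under several gene names counted for each. The files do not state whether positions count from 0 or 1. They were read as 0-based because the share of U on the 2 strands of chromosome 1 was then closer, at 40.2% and 41.9%, against 36.9% and 44.6% otherwise. Gene types and regions came from GENCODE release 44 by gene ID, in the order CDS, 5′ UTR, 3′ UTR, other exon, intron. Copies of the 31-nt surroundings were sought on both strands of the autosomes, X and mitochondrial genome. Wilson, exact Poisson and exact conditional intervals (95%, scipy 1.17.1) cover counting error only, as duplicates may be left.

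The members and gene lists were chosen with earlier results of these data known. Named genes are the 10 with the highest ratio, the 5 with the highest GM01953 count, up to 5 members per list, the 3 highest and 3 lowest intron shares, the 3 highest shares at 1 position, and 5 genes to each side of the threshold. IFITM1, SP110, AGBL5, WDR74, IFITM2, AC007192.4, listed genes that are no members and those under other observations were named after their values were seen. Some genes and sequences that this rule takes in are not reported here. RNA levels and per-replicate values were not used here.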

Additional observations from a re-analysis of the deposited data

How the results depend on the processing

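No paired analysis was possible because the replicates of each line were pooled, and leaving out a replicate was not possible for the same reason. Of the 150 genes, between 104 and 149 remained among the 150 highest ratios when 1 or 50 CPM (counts scaled to a total of 1000000) were added, with positions under 1 gene name, without the highest position, in exons alone, with totals without histones, with gene type by name or with DoHH-2 thinned to the GM01953 total. Only 77 remained with a minimum of 10 counts at 3 positions and 33 with 50 counts at 10 positions, where 33 were still candidates. With FDR below 0.05 it was 75, and with each position counted once 56, where 56 were still candidates. The 395 candidates with a ratio of 2 or more became 393 of 781 with FDR below 0.05, where the candidate median was 2.01 in place of 1.28, 156 of 524 with each position once and 217 of 980 without the highest position. The intronic share of 24.4% became 26.7% with FDR below 0.05, 25.7% with positions under 1 name, 19.0% with each position once, 21.9% without the highest position, 33.4% with the longest coding transcript and 21.4% without genes in repeated or small RNA sequence, an alternative added after seeing the data. In exons alone the ratio of GTF2F1 was 0.931 and that of XXbac-BPG181M17.5 0.686. Of the 34 GM01953 counts of XXbac-BPG181M17.5, 26 were also listed under HLA-DMA and 8 under HLA-DMB, and HLA names were left out by the rule. Of 498 other values of 56 named genes, 111 moved and 2 reversed, most under another added constant, as for MS4A1 (17.0 with 50 and 123 with 1 CPM added). At the GM01953 depth 1 count is 5.98 CPM, so a gene needed 120 CPM to be a candidate.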

Other observations

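Further members, picked after their values were seen, were on none of the gene lists, and no share over all genes is given for them. MYO1E, a class I myosin, had 40 counts in GM01953 and 3 in DoHH-2, ANXA6, an annexin, had 36 and 7, LASP1 had 34 and 83, and the ARP2/3 complex subunit ARPC1B had 44 and 117, where 50% of its GM01953 counts were shared with another gene name. HIC1, a transcriptional repressor, had 34 and 0 counts, and NR2F2, an orphan nuclear receptor, had 25 and 0. RUNX3, a lymphocyte transcription factor, had 43 and 83, JUNB had 28 and 69, and ZFP36 and ZFP36L1, which destabilize AU-rich mRNAs, had 32 and 47 counts and 23 and 47. TGFB1, a cytokine, had 80 and 139 counts. On its canonical mRNA the 5′ UTR held 75 of 79 GM01953 counts and 73 of 114 in DoHH-2.

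Listed NF-κB and TNF genes below the minimum lay on both sides. In GM01953 SLAMF1 and TNFAIP2 had 19 counts each, EBI3 had 18, BCL2A1 had 17 and LTA had 14, where DoHH-2 had none of the 5. These genes did not reach 20 counts and are not among the 150. With a ratio below 1, RELB had 23.9 and 49.7 CPM, NFKBIB 5.98 and 21.1, and TNFRSF1A 5.98 and 14.8.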
